A study of Mus musculus with 6 samples.

Results

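Myelin and oligodendrocyte lineage transcripts were compared between VMHpvlm and VMHpvll, neighbouring parts of the ventrolateral ventromedial hypothalamus (VMH), in female mice. The gene set was a list of 35 symbols, all of which were found among the 47480 genes of the deposited table, and all 35 passed the filter of a mean normalised read count of at least 10. They were divided by known role into 12 genes of myelin structure, 4 of myelin lipid and N-acetylaspartate metabolism, 7 other genes of mature oligodendrocytes, 4 transcription factors, 3 genes of committed or newly formed cells and 5 genes of precursors. The first 3 of these classes, 23 genes in all, are called mature genes below.

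Both groups came from female mice of the background VgluT2-cre/Ai6, in which cre expressed from the VgluT2 (Slc17a6) locus turns on the green fluorescent Ai6 reporter. The reporter therefore marks neurons with a history of glutamate transporter expression, and the captured tissue also holds glia. VMHpvlm and VMHpvll, with 3 libraries each, were cut by laser capture from frozen coronal sections. No age, treatment or number of animals is given in the labels. Titles begin with F19, F20 or KH_161103 in both regions, and libraries with the same name were taken as pairs. Nothing in the labels ties a shared name to 1 animal or says that libraries came from separate animals, so the p-values reflect spread among libraries that may be technical.

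Oligodendrocytes wrap axons in myelin, a stack of membrane rich in cholesterol and galactolipids that is held together by proteins such as myelin basic protein. They arise from precursor cells that carry the PDGF receptor alpha and the NG2 proteoglycan and that persist in adult grey matter, the hypothalamus included. Cells that leave the precursor state pass through a committed stage marked by Gpr17 before myelin genes are switched on under Sox10 and Myrf.

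Recovered reads ran from 7157831 to 11293159 per library, and the 35 genes together took between 0.131% and 0.148% of reads in VMHpvlm and between 0.173% and 0.180% in VMHpvll. The VMH transcription factor Fezf1 averaged 1191 ± 15.6 in VMHpvlm against 642 ± 14.3 in VMHpvll. The oestrogen receptor Esr1 averaged 513 ± 74.0 and 1490 ± 63.8. Nr5a1, a further VMH marker, averaged 308 ± 19.5 in VMHpvlm and only 31.5 ± 6.73 in VMHpvll. These markers were thus detected in both regions, but at unlike levels. Levels are normalised read counts, that is reads divided by 1 size factor per library, and are given as mean ± SD (n = 3 libraries). Each difference is the VMHpvlm value less the VMHpvll value on a log2(value + 1) scale, with the standard error (SE) of the paired limma fit, so a negative difference means more transcript in VMHpvll. A gene was called at a Benjamini-Hochberg adjusted p below 0.05 over all 14519 genes tested.

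Start sites are shown first, for the called genes with 1 annotated start and the largest differences: Opalin, Ermn and Mobp of myelin structure and Cspg4 of the precursor class. The stretches lie upstream of the first annotated base, are written 5′ to 3′ on the strand of the gene and come from RefSeq on GRCm38.p6, the assembly that corresponds to mm10. Capitals mark the 6 letters ACAAAG or their reverse complement CTTTGT, a core that SOX-family factors such as Sox10 can bind.
Opalin (chr19:41077114-41077363, - strand): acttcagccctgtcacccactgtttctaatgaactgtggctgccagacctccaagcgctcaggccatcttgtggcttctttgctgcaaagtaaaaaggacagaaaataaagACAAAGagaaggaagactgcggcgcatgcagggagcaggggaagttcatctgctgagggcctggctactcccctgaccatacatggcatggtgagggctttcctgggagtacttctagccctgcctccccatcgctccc
Ermn (chr2:58052865-58053114, - strand): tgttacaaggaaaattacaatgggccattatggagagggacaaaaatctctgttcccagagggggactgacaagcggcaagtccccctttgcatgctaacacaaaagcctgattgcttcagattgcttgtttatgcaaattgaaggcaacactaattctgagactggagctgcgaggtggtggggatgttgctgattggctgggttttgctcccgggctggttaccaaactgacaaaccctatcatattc
Mobp (chr9:120149492-120149706, + strand): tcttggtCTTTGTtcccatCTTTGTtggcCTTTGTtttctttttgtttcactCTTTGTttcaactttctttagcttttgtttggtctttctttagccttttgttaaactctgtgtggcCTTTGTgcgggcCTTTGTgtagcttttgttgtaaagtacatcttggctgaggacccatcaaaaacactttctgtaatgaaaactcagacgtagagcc
Cspg4 (chr9:56864854-56865032, + strand): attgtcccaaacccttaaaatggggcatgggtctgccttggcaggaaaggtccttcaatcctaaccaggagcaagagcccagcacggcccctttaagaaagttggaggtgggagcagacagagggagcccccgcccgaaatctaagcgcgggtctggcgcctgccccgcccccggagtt
The Mobp stretch of 215 bases held 6 matches, all in the CTTTGT orientation. That of Opalin held 1, and those of Ermn and Cspg4 held none. Of 32851 start-site windows of 300 bases (250 before the start and 50 after it), 1 held at least 6 matches, and it was that of Mobp. These matches describe the letters and are no measure of binding.

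Start-site windows were found for 24 of the 35 genes. ACAAAG on either strand was in at least 1 window of 6 of them (25.0%; Apod, Cnp, Mag, Mobp, Opalin and Tspan2), against 21.0% of 27025 genes. All 6 were among the 18 mature genes with a window, and 0 were among the 4 precursor genes with one. CAGCTG, an E-box of the kind that Olig proteins and other basic helix-loop-helix factors bind, was in 6 of 24 (25.0%), against 18.3% of all genes. CTGGCAC, letters known as part of the Myrf site, was in 4 of 24 (16.7%; Cnp, Hapln2, Mag and Opalin), against 5.73% of all genes, again searched on both strands. The last 3 letters of CAGCTG are the first 3 of CTGGCAC, so these matches can overlap. Opalin held all 3 motifs over its whole window.

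Transcripts of the lineage were higher in VMHpvll. Of the 35 genes, 25 were called higher in VMHpvll, against 9.48% of all genes tested, and 0 were called higher in VMHpvlm, against 10.5%. By unadjusted p below 0.05 in limma the counts were 27 and 0, beside 4324 of all 14519 genes in either direction. By edgeR 26 genes were called higher in VMHpvll and 0 in VMHpvlm, beside 1510 and 1520 of all genes tested. By DESeq2 the counts were 11 and 0, beside 580 and 646. The median log2 difference of the 35 genes was -0.36, beside 0.00 over all genes tested, and 34 of 35 fitted differences were below 0. Transcripts were higher in VMHpvll in 3 of 3 pairs for 31 genes, against 23.2% of all genes, and for 26 genes every VMHpvll library lay above every VMHpvlm library, against 13.5%. The reverse held for 0 genes, against 14.5%. In bulk tissue, more cells of a type and more RNA per cell cannot be told apart.

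**Figure D1:**
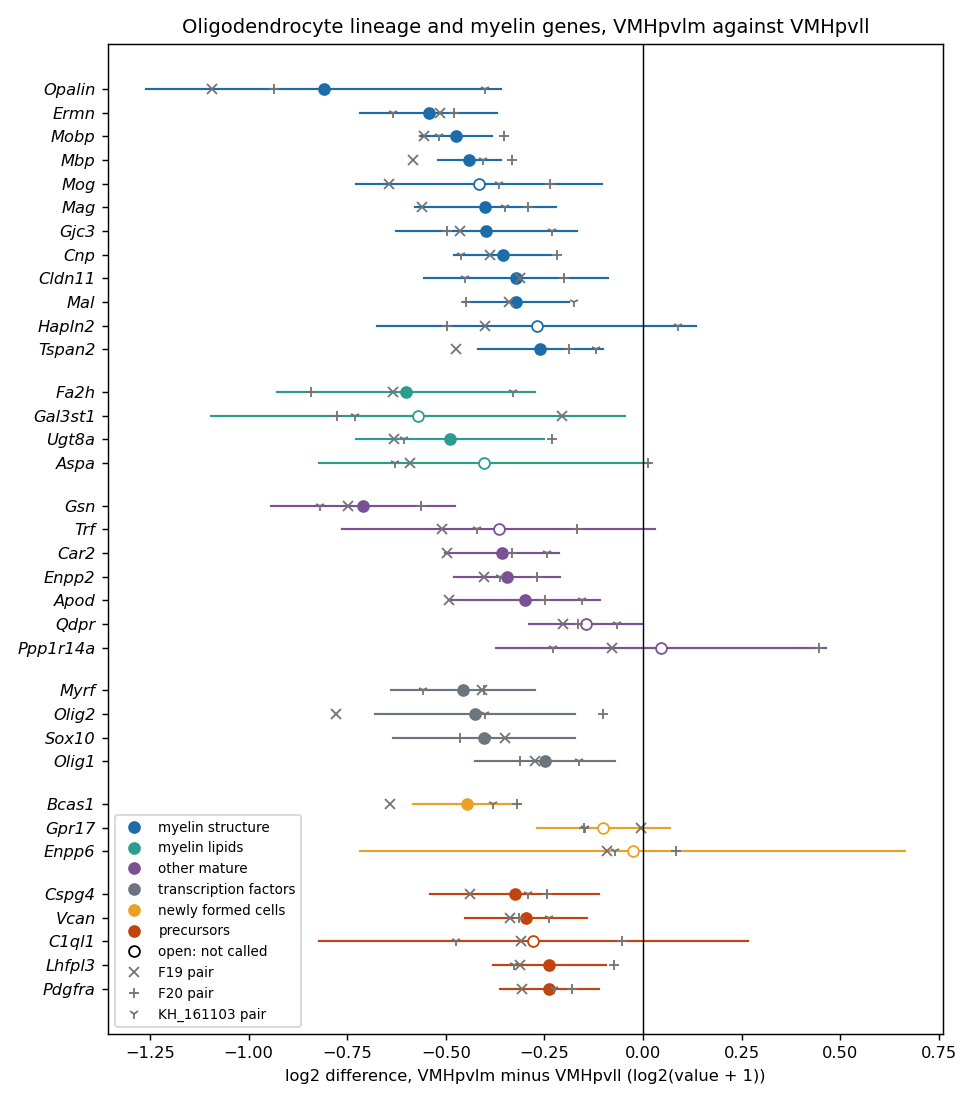
Fitted log2 difference (VMHpvlm minus VMHpvll, horizontal axis) of each of the 35 genes, grouped by role, with its 95% limma interval as a line, filled circles for called genes and open circles for the others; grey marks give the F19, F20 and KH_161103 pairs. All 25 filled circles lie left of 0, Opalin is farthest left at -0.81, and Ppp1r14a at 0.05 is the 1 gene right of it.

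The calls rest on a spread shared between genes, since pairing left 2 residual degrees of freedom per gene. With a variance prior without trend or robust fitting 1 of the 35, Gsn, was called, and without the pair block 16. Without the F19 pair 15 were called, without the F20 pair 23 and without the KH_161103 pair 18. Over all genes tested, those called higher in VMHpvll numbered 233, 863, 1002, 1359 and 839 under these settings in turn, beside 1377 in the main fit.

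Genes of myelin structure were higher in VMHpvll as a class, with 10 of 12 called and a median log2 difference of -0.40. By DESeq2 6 of the 12 were called, and without the F19 pair 6 by limma. Opalin, a membrane protein restricted to oligodendrocytes, was at 25.7, 36.1 and 45.4 in the F19, F20 and KH_161103 libraries of VMHpvlm and at 56.1, 70.0 and 60.3 in those of VMHpvll. The regions did not overlap, and the F19 library of VMHpvlm was the lowest of the 6. Its level was 1.74-fold higher in VMHpvll (log2 difference -0.81 ± 0.22 SE, limma Benjamini-Hochberg adjusted p = 0.00611), and it was not called without the F19 pair (adjusted p = 0.0776). Ermn, the cytoskeletal protein ermin of late differentiation, was at 275, 328 and 259 in VMHpvlm and at 394, 457 and 403 in VMHpvll, again without overlap. Its log2 difference was -0.54 ± 0.09 SE (limma adjusted p = 3.18e-06).

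The highest mean levels per length over the 6 libraries belonged to the basic proteins of myelin. Over exons, Mbp, which encodes myelin basic protein, had 408 normalised reads per kilobase in VMHpvlm and 554 in VMHpvll, and Mobp, the myelin-associated oligodendrocyte basic protein, had 264 and 366. In VMHpvlm alone Qdpr, at 276 per kilobase, lay above Mobp. Mobp was at 1734, 1949 and 1735 in the VMHpvlm libraries and at 2548, 2490 and 2484 in those of VMHpvll, which lay within a narrow range. Its log2 difference was -0.48 ± 0.05 SE (limma adjusted p = 1.81e-11), and that of Mbp was -0.44 ± 0.04 SE (adjusted p = 9.33e-12). Mbp was at 3455 ± 270.1 in VMHpvlm and 4688 ± 349 in VMHpvll, with its largest paired difference in F19 (-0.58) and its smallest in F20 (-0.33).

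Tspan2, a tetraspanin of the myelin membrane, had the smallest difference of the class. It was at 397, 453 and 451 in VMHpvlm and at 552, 515 and 490 in VMHpvll, close together but without overlap. Its log2 difference was -0.26 ± 0.08 SE (limma adjusted p = 0.0126), and without the F19 pair it was -0.15 and not called (adjusted p = 0.318). The adhesion protein Mag (-0.40), the phosphodiesterase Cnp (-0.36), the proteolipid Mal (-0.32), the tight junction protein Cldn11 (-0.32) and the connexin Gjc3 (-0.40) were called too, with VMHpvll libraries above all VMHpvlm libraries for each. Cldn11 was not called without F19 (limma adjusted p = 0.133) or without KH_161103 (0.3), nor Gjc3 without F19 (0.0536) or F20 (0.0518). The uncalled members were Mog, the myelin oligodendrocyte glycoprotein, at 84.5 ± 1.57 against 114 ± 16.9 (limma adjusted p = 0.0512, and 0.0317 without F20), and Hapln2, a link protein of the nodes of Ranvier, at 52.7 ± 4.78 against 64.2 ± 11.1 (adjusted p = 0.398).

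**Figure D2:**
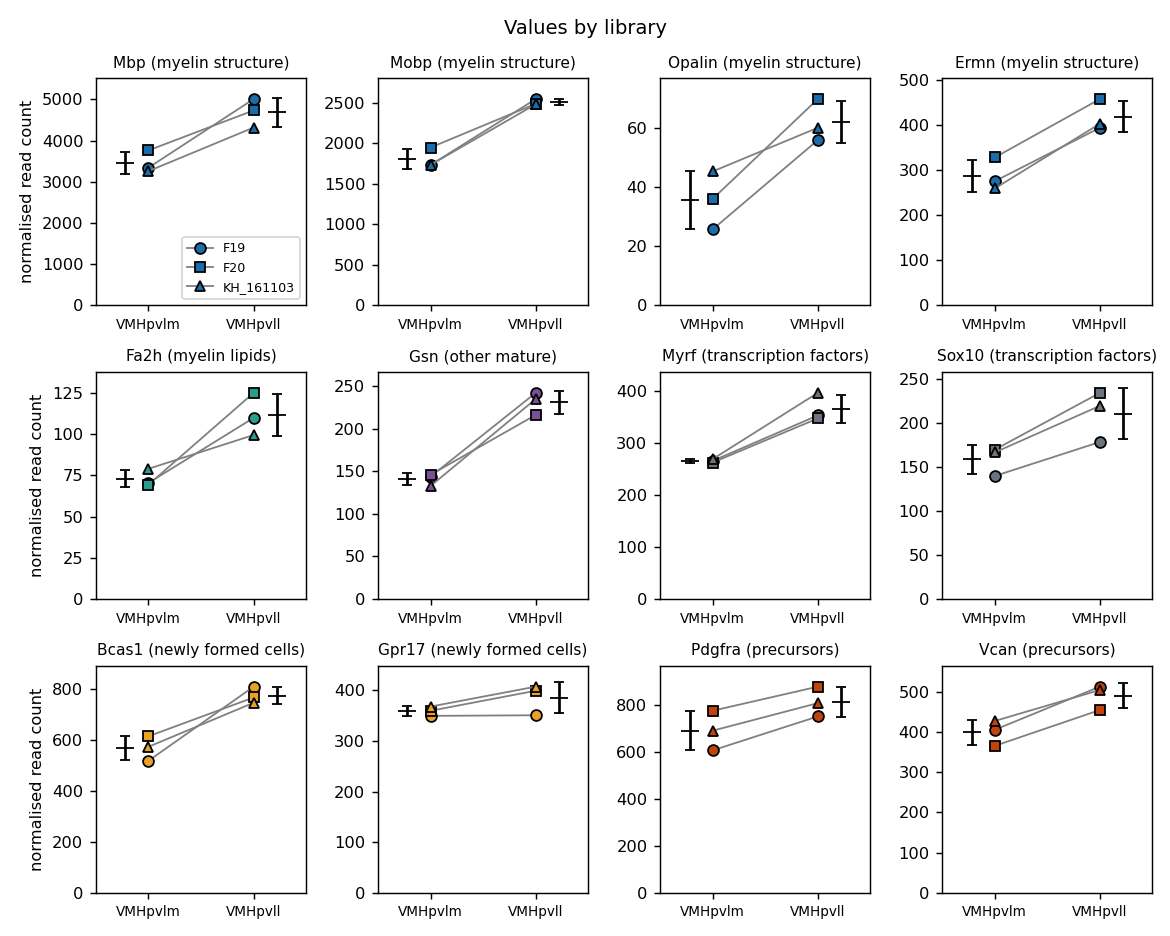
Normalised read counts of 12 genes in each library, with lines joining libraries of the same name, marker shapes for F19, F20 and KH_161103 and black bars for the mean and SD of 3 libraries. VMHpvll lies above VMHpvlm in every pair, by a wide margin for Gsn (231 against 141 on average) and a narrow one for Gpr17 (386 against 359).

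Of the 4 enzymes of myelin lipid and N-acetylaspartate metabolism 2 were called, all had fitted differences below 0, and the median was -0.53. By DESeq2 0 of the 4 were called, and by limma 1 without the F20 pair and 1 without KH_161103. Fa2h, the hydroxylase that makes 2-hydroxy fatty acids for myelin galactolipids, was at 70.4, 69.4 and 79.0 in VMHpvlm and at 110, 125 and 99.5 in VMHpvll. These values did not overlap, and the log2 difference was -0.60 ± 0.16 SE (limma adjusted p = 0.00499, and 0.0645 without the F20 pair). Ugt8a, which adds galactose to ceramide, was at 142, 190 and 130 in VMHpvlm and at 221, 223 and 198 in VMHpvll. The F20 library of VMHpvlm came close to VMHpvll without reaching it, and the log2 difference was -0.49 ± 0.12 SE (limma adjusted p = 0.00167, and 0.0543 without KH_161103).

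Gal3st1, which sulphates galactocerebroside to sulphatide, was at 28.4, 29.1 and 22.7 in VMHpvlm and at 33.0, 50.6 and 38.3 in VMHpvll. It was separated between regions but not called (log2 difference -0.57, 95% interval -1.10 to -0.05, limma adjusted p = 0.125), on between 21 and 42 reads per library. Aspa, which breaks down N-acetylaspartate, was at 42.0, 54.1 and 44.5 in VMHpvlm and at 63.8, 53.6 and 69.4 in VMHpvll. The F20 pair did not differ, and Aspa was not called (log2 difference -0.40, limma adjusted p = 0.192).

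Of the 7 other genes of mature cells 4 were called higher in VMHpvll, and they ranged from Gsn at -0.71 to Ppp1r14a at 0.05. Gsn, the actin-severing protein gelsolin, which is abundant in oligodendrocytes and also made by fibroblasts, was at 144, 146 and 133 in VMHpvlm and at 242, 216 and 235 in VMHpvll. Its libraries were tight within each region and far apart between them. The log2 difference of -0.71 ± 0.12 SE (limma adjusted p = 5.53e-06) was called under all 15 alternatives that were run. Car2, carbonic anhydrase 2, was at 512, 502 and 455 in VMHpvlm and at 723, 633 and 539 in VMHpvll (log2 difference -0.36 ± 0.07 SE, limma adjusted p = 0.00015). In both regions its KH_161103 library was the lowest and its F19 library the highest.

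The lysophospholipase Enpp2 (autotaxin, -0.35) and the lipocalin Apod (-0.30) were called higher in VMHpvll. Apod overlapped between regions, with a KH_161103 library of VMHpvll at 253 against 287 and 294 in the F19 and F20 libraries of VMHpvlm, and was not called without the F19 pair (limma adjusted p = 0.294). Trf, the iron carrier transferrin, was at 51.5, 56.9 and 45.4 in VMHpvlm and at 73.6, 64.0 and 61.2 in VMHpvll, without a call (log2 difference -0.37, limma adjusted p = 0.214). Its reads are uncertain, because 63.5% of its exon bases are shared with Gm20425 on the same strand. Qdpr, which regenerates tetrahydrobiopterin and is also made by other cell types, was at 493 ± 24.9 against 546 ± 39.8 (log2 difference -0.14, 95% interval -0.29 to 0.00, adjusted p = 0.171). Ppp1r14a, an inhibitor of myosin phosphatase, was at 44.7, 69.4 and 53.6 in VMHpvlm and at 47.3, 50.6 and 63.0 in VMHpvll. It was the 1 gene with a fitted difference above 0 (0.05, 95% interval -0.37 to 0.46, limma adjusted p = 0.919).

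All 4 transcription factors of the lineage were called higher in VMHpvll by limma, and 1 of them, Myrf, by DESeq2. Myrf, the membrane-tethered factor that switches on myelin genes, was at 265, 262 and 269 in VMHpvlm and at 353, 347 and 396 in VMHpvll. The VMHpvlm libraries were nearly equal and all lay below VMHpvll, with a log2 difference of -0.46 ± 0.09 SE (limma adjusted p = 0.000131). Sox10, present through the whole lineage, was at 139.5, 169 and 166 in VMHpvlm and at 178, 234 and 219 in VMHpvll. Its F19 library was the lowest in both regions, and the log2 difference was -0.40 ± 0.11 SE (limma adjusted p = 0.0081).

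Olig2, which specifies the lineage, was at 122, 165 and 155 in VMHpvlm and at 210, 177 and 205 in VMHpvll (log2 difference -0.43 ± 0.13 SE, limma adjusted p = 0.0106). The pairs differed unevenly, from -0.10 in F20 to -0.78 in F19. Olig1, its partner gene on chromosome 16, was at 301, 273 and 338 in VMHpvlm and at 364, 340 and 378 in VMHpvll (log2 difference -0.25 ± 0.09 SE, limma adjusted p = 0.0375). The regions almost touched, at 338 and 340. Without the F19 pair neither Olig gene was called (limma adjusted p = 0.297 for Olig2 and 0.142 for Olig1), nor without KH_161103 (0.0844 and 0.106). Sox10 was not called without KH_161103 (0.0734), and Olig1 was not called without F20 (0.112).

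Of the 3 genes of the steps between precursor and mature cell 1 was called. Bcas1, which marks early myelinating cells and stays on in mature ones, was at 517, 614 and 572 in VMHpvlm and at 808, 765 and 745 in VMHpvll. The regions were well separated, with a log2 difference of -0.45 ± 0.07 SE (limma adjusted p = 1.5e-06). Gpr17, the receptor of committed precursors, was at 349, 360 and 368 in VMHpvlm and at 351, 399 and 407 in VMHpvll. The F19 pair was level, the regions overlapped and no call was made (log2 difference -0.10, 95% interval -0.27 to 0.07, limma adjusted p = 0.461). That interval does not reach the fitted difference of Bcas1, and the difference between the genes was not tested. Enpp6, a phosphodiesterase of newly formed oligodendrocytes, had the lowest level per length of the 35, 2.91 normalised reads per kilobase in VMHpvlm and 3.01 in VMHpvll. Its normalised read counts were 25.7, 11.1 and 19.1 in VMHpvlm and 27.5, 10.4 and 20.1 in VMHpvll. Its level varied more between pair names than between regions. At between 7 and 25 reads per library its 95% interval ran from -0.72 to 0.66 (limma adjusted p = 0.975), a range that includes the difference of Mbp.

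Of 5 precursor genes 4 were called higher in VMHpvll, with a median log2 difference of -0.28. By edgeR 4 were called as well and by DESeq2 0. Pdgfra, the PDGF receptor alpha that drives precursor proliferation, was at 608, 777 and 692 in VMHpvlm and at 753, 880 and 810 in VMHpvll. Each pair differed the same way, but the F20 library of VMHpvlm lay above the F19 library of VMHpvll. The log2 difference was -0.24 ± 0.06 SE (limma adjusted p = 0.00373). Cspg4, the NG2 proteoglycan, which pericytes also carry, was at 187, 211 and 190 in VMHpvlm and at 254, 250 and 233 in VMHpvll, without overlap (log2 difference -0.33 ± 0.11 SE, limma adjusted p = 0.0223).

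Vcan, the matrix proteoglycan versican, was at 405, 365 and 427 in VMHpvlm and at 512, 454 and 504 in VMHpvll (log2 difference -0.30 ± 0.08 SE, limma adjusted p = 0.00347). Lhfpl3, a membrane protein enriched in precursors, was at 481, 594 and 517 in VMHpvlm and at 597, 625 and 649 in VMHpvll (-0.24 ± 0.07 SE, limma adjusted p = 0.0118). Neither gene overlapped between regions, though Lhfpl3 at 594 and 597 came within a few reads. C1ql1, a secreted C1q-like protein of precursors, was at 14.9, 43.0 and 30.0 in VMHpvlm and at 18.7, 44.7 and 42.0 in VMHpvll. As for Enpp6, the spread between pair names exceeded the regional difference (-0.28, 95% interval -0.82 to 0.27, limma adjusted p = 0.542). Without the F19 pair 1 precursor gene, Vcan, was called, without F20 4 and without KH_161103 2, Vcan among them each time.

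The median difference of mature genes was larger than that of precursor genes in each pair, by a small amount. Of 23 mature genes 16 were called, with a median log2 difference of -0.40. This lay 0.12 below that of the 5 precursor genes (0.057 below without the F19 pair and 0.18 below without KH_161103). The precursor median of -0.28 was the fitted value of C1ql1, which had 11 to 46 reads per library and was not called. At a mean of at least 50, which left out C1ql1 among others, the mature median lay 0.098 below, and by edgeR 0.091 below. In F19 the medians were -0.50 and -0.31, in F20 -0.29 and -0.18, and in KH_161103 -0.36 and -0.29. The summed level of mature genes divided by that of precursor genes was 6.05, 5.65 and 5.36 in the VMHpvlm libraries and 6.84, 6.25 and 5.81 in those of VMHpvll. The ratio was higher in VMHpvll in 3 of 3 pairs, but the KH_161103 library of VMHpvll lay below the F19 library of VMHpvlm, so the regions overlapped. Mbp and Mobp made up between 49.4% and 52.3% of the mature sum, and without them the ratio was 3.06, 2.78 and 2.67 in VMHpvlm and 3.30, 3.04 and 2.77 in VMHpvll. No p is given for these sums and medians, since their members were chosen with results of these data known.

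**Figure D3:**
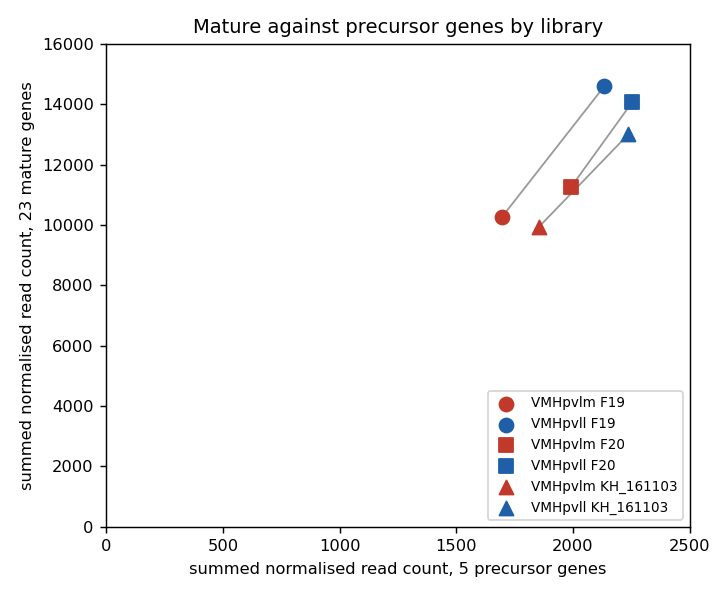
Summed normalised read count of 23 mature genes (vertical axis) against that of 5 precursor genes (horizontal axis) in each library, both axes from 0, with lines joining libraries of the same name. VMHpvll libraries lie higher on both axes, at 13009 to 14605 for mature genes against 9951 to 11246 in VMHpvlm, and at 2135 to 2255 for precursor genes against 1696 to 1990.

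Further genes of myelin and oligodendrocytes that were called were also higher in VMHpvll. Of 32 tested, 7 were called higher in VMHpvll and 0 in VMHpvlm (0 also at an unadjusted p below 0.05, by edgeR and by DESeq2), a share of 21.9% beside the 9.48% of all genes, with a median log2 difference of -0.28. Plekhh1 (-0.43), Phldb1 (-0.24) and the septin-binding protein anillin Anln (-0.45) were among those called. The excess over the share of all genes depended on the setting. By edgeR 8 of the 32 were called higher in VMHpvll, beside 1510 of 14519 genes, but by DESeq2 1, beside 580 of 14519. Without KH_161103 2 of the list were called, beside 839 of 14526 genes, and Phldb1 (limma adjusted p = 0.125) and Anln (0.0669) were not.

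Among further precursor genes the called share was near the background. Of 22 tested, 3 were called higher in VMHpvll (13.6%), 0 in VMHpvlm by limma, edgeR or DESeq2 (3 at an unadjusted p below 0.05), and the median log2 difference was -0.07. Cacng4, an AMPA receptor auxiliary subunit, had the largest difference, at 797 ± 29.6 against 1172 ± 43.5 (-0.55 ± 0.06 SE, limma adjusted p = 1.67e-10). Sulf2, a heparan sulphatase, had a difference of -0.29 and Itpr2, an inositol trisphosphate receptor, of -0.22 (limma adjusted p = 0.0276, and 0.294 without KH_161103), and Susd5 of -0.47 was not called (0.0986). Many genes of this list are also made by neurons or astrocytes.

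The called genes of cholesterol synthesis were higher in VMHpvlm. Cholesterol is a main lipid of myelin, and adult neurons and astrocytes also make it. Of 22 tested, 5 were called higher in VMHpvlm, a share of 22.7% beside 10.5% of all genes, 0 were called higher in VMHpvll by limma, edgeR or DESeq2 (1 at an unadjusted p below 0.05), and the median log2 difference was 0.14. Sqle, squalene epoxidase, was at 666, 634 and 636 in VMHpvlm and at 506, 557 and 498 in VMHpvll, without overlap (log2 difference 0.31 ± 0.07 SE, limma adjusted p = 0.00065). Fdft1, squalene synthase, was at 913 ± 108 against 754 ± 58.6 (0.27 ± 0.06 SE, adjusted p = 0.000551, and 0.0517 without KH_161103). Pmvk had a difference of 0.38 (limma adjusted p = 0.156 without F19). Without the KH_161103 pair 2 of the list were called, and with DESeq2 0. Scaling to the upper quartile gave 4 higher in VMHpvlm and 1 in VMHpvll.

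Signals between axons and the lineage differed in both directions. Of 29 tested ligands, receptors and contact proteins, 5 were called higher in VMHpvll and 7 in VMHpvlm, shares of 17.2% and 24.1% beside 9.48% and 10.5%. Igf1, a growth factor that promotes oligodendrocyte survival, was at 17.6, 16.7 and 16.3 in VMHpvlm and at 84.6, 58.1 and 53.9 in VMHpvll, far apart (log2 difference -1.87 ± 0.26 SE, limma adjusted p = 1.89e-07). Its receptor Igf1r was also higher in VMHpvll, at 1167 ± 18.3 against 907 ± 9.2 (-0.36 ± 0.05 SE, adjusted p = 1.15e-06). Lingo1, a neuronal protein known to restrain myelination, was higher in VMHpvlm (0.46 ± 0.07 SE, limma adjusted p = 3.81e-06), as was the neuregulin receptor Erbb4 (0.32 ± 0.05 SE, adjusted p = 7.63e-06). Without KH_161103 3 genes of this list were called higher in VMHpvlm.

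**Figure D4:**
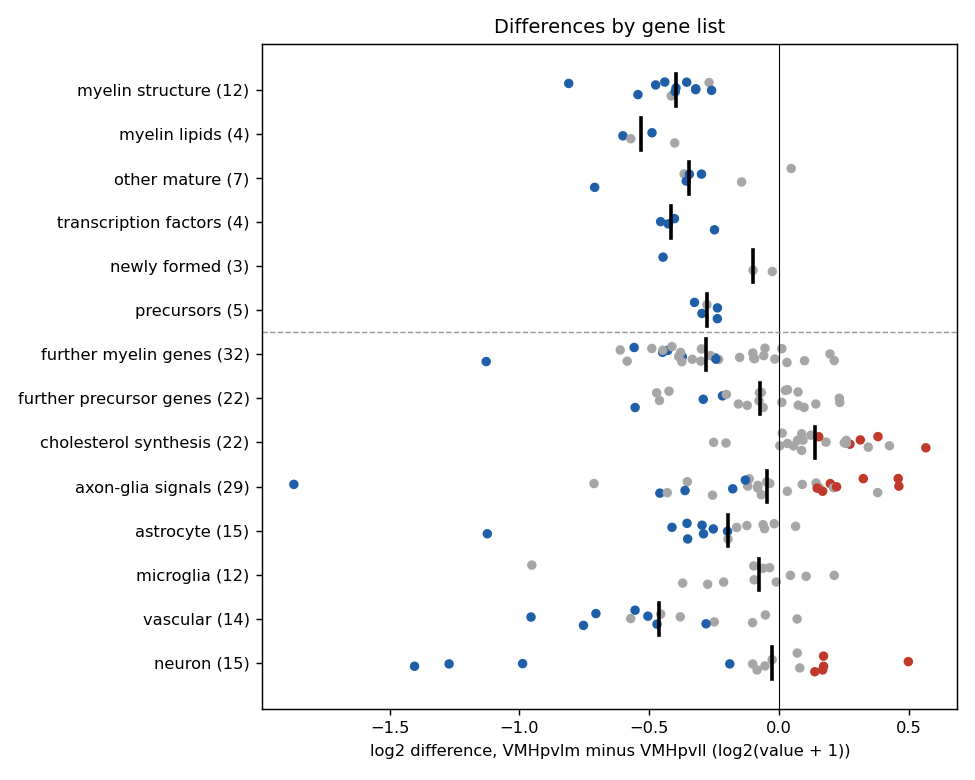
Fitted log2 differences (VMHpvlm minus VMHpvll, horizontal axis) of the tested genes of 14 lists, 1 point per gene with a black line at the median; blue points were called higher in VMHpvll, red points higher in VMHpvlm and grey points were not called. Above the dashed line stand the 35 genes by role, with medians from -0.53 (myelin lipids) to -0.10 (newly formed), and below it the other lists, with cholesterol synthesis at 0.14.

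Markers of some other cell types moved with the region as well. Over all 14519 genes tested, 9.48% were called higher in VMHpvll and 10.5% in VMHpvlm by limma. The counts over all genes were 1510 and 1520 by edgeR and 580 and 646 by DESeq2. Of 15 astrocyte markers 8 were called higher in VMHpvll and 0 in VMHpvlm (median -0.20, with 9 and 0 by edgeR and 4 and 0 by DESeq2). The glutamate transporter Slc1a2 had a difference of -0.35, while Slc1a3, the next by level, was at -0.06 and not called (limma adjusted p = 0.329). The summed astrocyte level ran from 32857 to 35200 in VMHpvlm and from 38460 to 43863 in VMHpvll. Slc1a2 alone averaged 19437 and 24863, beside mean sums of 33887 and 40699, so these sums rest largely on 1 gene. Of 14 vascular markers 7 were called higher in VMHpvll and 0 in VMHpvlm (median -0.46; 7 and 0 by edgeR, 2 and 0 by DESeq2), among them the VEGF receptor Flt1 at -0.55, with sums of 1900 to 2176 and 2675 to 3049. Of 12 microglia markers 0 were called by limma, edgeR or DESeq2, 2 at an unadjusted p below 0.05, with sums of 1314 to 1434 and 1418 to 1577. Of 15 neuronal markers 4 were called higher in VMHpvll and 5 in VMHpvlm (3 and 2 by DESeq2), led in level by Map2 (-0.03) and Snap25 (0.50), with overlapping sums of 87455 to 93250 and 84346 to 89956. The 4 higher in VMHpvll were Slc32a1 (-1.40), Gad2 (-1.27) and Gad1 (-0.99), genes of GABA neurons, and Nefh (-0.19). Level sums therefore do not mean the same types of neuron in both regions. Of 4 tested ependymal and tanycyte markers 1, Nes (-1.16), was called higher in VMHpvll. The part of these cells in the differences of the lineage genes was not tested.

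Some of the 35 genes are also made by other cells whose markers were checked. Fibroblasts make Pdgfra, Gsn and Apod, and 0 of 6 tested fibroblast markers were called by limma, edgeR or DESeq2, 0 of them at an unadjusted p below 0.05, with overlapping sums of 322 to 477 in VMHpvlm and 346 to 535 in VMHpvll. The pairs were unlike, with a median log2 difference of these markers of -0.94 in F19, 0.01 in F20 and 0.09 in KH_161103. The part of fibroblasts in the F19 pair was not tested. Choroid plexus makes Enpp2, and of its 7 markers 5 had a mean below 10. Of these Ttr, Folr1, Kcne2 and Slc4a5 had between 0 and 1 reads per library, and Otx2 had 0 in every library. The remaining choroid plexus markers went opposite ways. Kl was at 264 ± 34.7 in VMHpvll against 153 ± 27.3 in VMHpvlm. Clic6 was at 162 ± 47.3 in VMHpvll against 255 ± 54.1 in VMHpvlm. Of 2 tested Schwann cell markers 1, Drp2 (-0.31), was called higher in VMHpvll. Rgs5, a marker of the vascular list, was at 638 ± 98.4 in VMHpvlm and 770 ± 50.4 in VMHpvll, the same direction as Cspg4. Rgs5 was called in the main fit (limma adjusted p = 0.0017), but not without KH_161103 (0.188) or by DESeq2 (adjusted p = 0.0801). Of the 14 vascular markers 13 had fitted differences below 0, 7 of them called, and Anpep was at 0.07.

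On mm10 all 35 genes are annotated as protein-coding in GENCODE M21. Opalin spans 41061710 to 41077113 on chromosome 19, Mobp 120149707 to 120181484 on chromosome 9, Gsn 35256380 to 35307892 on chromosome 2, Myrf 10208272 to 10240748 on chromosome 19 and Pdgfra 75152292 to 75198215 on chromosome 5. For 12 of the 35, exons share bases with another gene. These were Mobp, Cnp, Ermn, Tspan2, Olig1, Trf, Qdpr, Enpp2, Bcas1, Gpr17, Pdgfra and Lhfpl3, and their reads are uncertain to that extent, since the use of strand in counting is not given in the sources used here. Beside Trf the largest shares were 18.6% of the exon bases of Qdpr, shared with Gm42413, and 17.6% of those of Lhfpl3, shared with A930003O13Rik, whose mean was 44.0.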

How the data were processed

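RNA-seq libraries of laser-captured VMHpvlm and VMHpvll (3 each, PicoPure RNA, stranded total RNA kit, per the labels' protocols) were analysed from 1 deposited table. Per the submitters' processing notes, HISAT2, featureCounts and mm10 were used; the sources used here give no version, annotation, scaling tool or strand setting. The deposited table holds normalised signal: dividing each library by its smallest step turned 100% of non-zero entries into whole reads, within 0.05 reads, as counts scaled by a size factor would. Values were tested as log2(value + 1), which understates the change of low genes, with limma 3.58.1 in R 4.3.3 (lmFit, eBayes with trend and robust), two-sided, for genes with a mean of at least 10, with region and pair name as terms. edgeR 4.0.16 and DESeq2 1.42.0 were run on the recovered reads. The limma step was tested on simulated data.

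Deviations from region means correlated over genes at 0.244 to 0.363 for libraries with the same name and at -0.247 to 0.0067 for others. Taking out the region means pushes the others below 0 once those of the same name are positive, so these ranges are not independent. The names were taken to pair libraries, and what the libraries of a name share was not tested. Genes and lists were chosen with earlier results of these data known. By rule, library values are given for the 3 largest and the smallest differences per class and for all transcription factors, newly formed and precursor genes; up to 4 genes per further pathway list by p (some are not reported here); and up to 2 per marker list by level. Mbp, Apod, the VMH markers and other genes were named after their values were seen. Of the listed symbols, Sept4 and 9630013A20Rik were not matched; the table held 27 gene names in date form, and 2 duplicated symbols were left out. Alternatives covered the block, pseudocount, filter, scaling, variance prior, tool and leaving out each pair.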

Additional observations from a re-analysis of the deposited data

How the results depend on the processing

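Fitted differences of the 35 genes kept their sign under the 15 alternatives with 2 exceptions, both uncalled genes: leaving out 1 pair at a time, Ppp1r14a ran from -0.15 (without F20) to 0.18 and Enpp6 from -0.081 to 0.0062 (without F19). Opalin, Gal3st1, Enpp6 and C1ql1 were not tested at a mean of at least 50. Calls moved far more than differences; the cause was not tested.

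Without the replicate block, genes called higher in VMHpvll and VMHpvlm numbered 863 and 936 (1377 and 1527 with it), 16 of the 35 were called, 1 precursor gene, 3 further myelin genes, 2 cholesterol genes, and 3 axon-glia signals in each direction. The median difference of mature genes was -0.40 with and without the pairing. With a variance prior without trend or robust, 233 and 189 genes were called, 1 of the 35 (a mature gene), 0 precursor, 0 further myelin, 0 further precursor and 0 cholesterol genes, and 2 axon-glia signals in VMHpvll and 0 in VMHpvlm. With DESeq2 these were 580 and 646 genes, 11 of the 35, 9 mature and 0 precursor genes, 1 further myelin gene, 0 cholesterol genes, and 3 axon-glia signals in each direction. In VMHpvll 1 cholesterol gene was called at a mean of at least 50, with equal totals without Gm42418, with the upper quartile and with TMM.

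Leaving out 1 pair at a time gave 839 to 1359 genes higher in VMHpvll and 935 to 1508 in VMHpvlm, 15 to 23 of the 35, 1 to 4 precursor genes, 2 to 8 further myelin genes, 0 to 1 further precursor genes in VMHpvlm, 0 to 1 cholesterol genes in VMHpvll and 2 to 6 in VMHpvlm, and 3 to 8 axon-glia signals in VMHpvlm. Called without each pair in turn were 12 of the 35: Mbp, Mobp, Mag, Cnp, Mal, Ermn, Myrf, Car2, Gsn, Enpp2, Bcas1 and Vcan. Enpp6 had 7 to 25 reads per library and a 95% interval of -0.72 to 0.66, and the part of depth in that width was not tested.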
